A study of Mus musculus with 24 samples.

Results

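The microRNA clusters miR-290 and miR-302 were examined in peak lists of the pausing and elongation factors NELF and DSIF in mouse embryonic stem cells. The members are the rows (called regions) of 6 peak lists that overlap either of 2 windows on build mm10. The miR-290 window, with the enhancer upstream of the cluster, runs from 3190 to 3226 kb on chromosome 7. The miR-302 window runs from 127535 to 127555 kb on chromosome 3. They held 59 of the 1811308 rows of the 6 lists, 33 in the miR-290 window and 26 in the miR-302 window.

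The cells are the mouse embryonic stem cell line E14, cultured in serum/LIF. All libraries used carry the genotype labelled Nelfb deg, in which NELFB bears an HA tag and can be degraded on addition of dTAG-13, and all have the treatment label Control (the protocol names DMSO or dTAG-13 in the medium). There are 2 libraries each of chromatin immunoprecipitated for NELFB:HA (through the HA tag), for NELFE (another NELF subunit) and for SPT5 (a DSIF subunit, detected with an antibody labelled anti-DSIF). The other 18 of the 24 samples, among them those exposed to dTAG-13 (500 nM, 30 min), the inputs and those titled naïve and EpiLC, are not analysed here. The pluripotent states themselves are therefore not compared: the contrast is between 2 loci within the same serum/LIF cells. Labels do not say that the replicates are separate cultures, so the spread between them may be technical.

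Both clusters encode microRNAs that are typical of pluripotent cells. The miR-290 cluster is known as the main cluster of ground-state and serum-grown mouse embryonic stem cells, and the miR-302 cluster as one that becomes prominent in primed, epiblast-like cells. Their products share a seed, the bases of a microRNA that pair with target messages, and are known to favour rapid cycling through repression of cell cycle inhibitors. Both are cut from long transcripts made by RNA polymerase II. NELF holds that polymerase in the paused state shortly after initiation, and SPT5, with its partner SPT4, binds it at pausing and remains with it during elongation.

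The annotated windows held 9 microRNA genes of the miR-290 cluster and 5 of the miR-302 cluster, and at least 1 mature sequence was found in the RefSeq table for each of the 14 genes, though not every arm is in it. The sequences are shown to make the relation between the clusters visible, 5′ to 3′, with the seed (bases 2 to 8) in capitals. The first set is the shared seed AAGUGCU, which 5 of 1738 mature mouse sequences of the table carried, 3 from the miR-290 cluster and 2 from the miR-302 cluster. The 3p arms of Mir302a and Mir292 are not in the table, so this count is of the sequences at hand.
miR-291a-3p: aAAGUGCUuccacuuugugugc
miR-294-3p: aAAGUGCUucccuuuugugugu
miR-295-3p: aAAGUGCUacuacuuuugagucu
miR-302b-3p: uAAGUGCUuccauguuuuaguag
miR-302d-3p: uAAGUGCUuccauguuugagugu
The second set holds related products, whose seeds differ at the last base or are shifted along the same run of letters, and miR-367-3p, the member of the miR-302 cluster with an unrelated seed.
miR-290a-3p: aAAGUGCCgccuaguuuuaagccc
miR-291b-3p: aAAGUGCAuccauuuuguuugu
miR-302c-3p: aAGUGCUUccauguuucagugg
miR-367-3p: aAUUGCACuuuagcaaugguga

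On chromosome 7 the miR-290 hairpins run from Mir290a, at 3218626 to 3218708, to Mir295, at 3220773 to 3220841, a stretch of 2216 bp on the plus strand (GRCm38.p6, the assembly behind mm10). They lie within the lncRNA D7Ertd143e (3218784 to 3221015), except Mir290a and its antisense entry Mir290b, since the annotated start of that transcript is 158 bp past the start of Mir290a. The annotated span of Nlrp12 (3218643 to 3249771), an innate immune gene, lies on the minus strand. Its lower end, where the gene ends, lies within Mir290a and Mir290b, and the span covers the other hairpins in full. On chromosome 3 the miR-302 hairpins run from Mir302b (127545228 to 127545301) to Mir367 (127545733 to 127545807), a stretch of 580 bp on the plus strand. They lie within the lncRNA Gm51018 (127545089 to 127546903) and inside the span of Larp7 (127536714 to 127553349), on the strand opposite to it. Larp7 encodes a protein of the 7SK particle that holds the pause-release kinase P-TEFb inactive. Its start lies 7542 bp past the end of Mir367. It is 140 bp from the start of the Zgrf1 promoter entry, at 127553489. The annotated span of Zgrf1, a helicase gene that runs the other way, begins at 127553396. Signal in the miR-302 window was therefore placed by its distance from the hairpins and from this pair of protein-coding starts.

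Annotated promoter windows of D7Ertd143e, Gm51018 and Larp7 are given as RefSeq lists them on GRCm38.p6, from 250 bases before to 50 bases after the start. The annotated D7Ertd143e start lies past the Mir290a hairpin, so a transcript from it would not hold Mir290a. The D7Ertd143e window, chr7:3218534-3218833 on the plus strand, is shown with the Mir290a hairpin in capitals.
D7Ertd143e: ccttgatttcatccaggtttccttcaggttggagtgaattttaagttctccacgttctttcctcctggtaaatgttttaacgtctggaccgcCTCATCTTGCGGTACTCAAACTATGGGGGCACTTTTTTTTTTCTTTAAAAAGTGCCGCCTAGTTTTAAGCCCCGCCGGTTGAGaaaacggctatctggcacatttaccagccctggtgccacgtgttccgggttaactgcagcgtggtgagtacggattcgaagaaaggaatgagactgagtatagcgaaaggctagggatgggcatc
The Gm51018 window, chr3:127544839-127545138 on the plus strand, is shown with the motif TATAAA in capitals.
Gm51018: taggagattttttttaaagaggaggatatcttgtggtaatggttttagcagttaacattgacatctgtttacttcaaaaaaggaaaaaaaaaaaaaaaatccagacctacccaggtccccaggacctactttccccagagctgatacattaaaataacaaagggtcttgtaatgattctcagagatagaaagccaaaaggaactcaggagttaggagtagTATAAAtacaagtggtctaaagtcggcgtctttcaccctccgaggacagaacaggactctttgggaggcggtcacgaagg
The Larp7 window, chr3:127553300-127553599 on the minus strand, is shown with both matches to the motif GGGCGG in capitals, which read here as its reverse complement.
Larp7: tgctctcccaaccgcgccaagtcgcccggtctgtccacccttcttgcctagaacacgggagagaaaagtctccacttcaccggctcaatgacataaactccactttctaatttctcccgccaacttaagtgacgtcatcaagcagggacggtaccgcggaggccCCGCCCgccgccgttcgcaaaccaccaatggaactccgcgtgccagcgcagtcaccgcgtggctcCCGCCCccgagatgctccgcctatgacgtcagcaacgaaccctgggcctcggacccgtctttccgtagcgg
Motifs were searched on both strands. TATAAA was in 13.6% of the 32851 promoter windows and began 30 bases before the start in the Gm51018 window. The motif GGGCGG was in 35.7% of windows and occurred 2 times in the overlapping Larp7 and Zgrf1 windows. The octamer ATGCAAAT, in 1.74% of windows, was in none of those 4 windows. The windows also differed in CpG dinucleotides, with 14 in D7Ertd143e, 5 in Gm51018 and 30 in Larp7, against a median of 7 over all promoter windows.

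The lists came from 27324697 to 62312558 filtered tags per library and held 137102 to 462153 rows. Most rows are weak. Called below are rows with a deposited q-value no higher than 0.01, which were 2.97% and 1.85% of all rows in the NELFB:HA lists, 5.52% and 5.42% in the NELFE lists, and 1.51% and 6.08% in the SPT5 lists. Fold enrichment is the authors' ratio of ChIP coverage to local input, and pileup is the ChIP coverage of the row, so both were compared only within a list. As a check of the labelled cell type, 6 of 8 embryonic stem cell marker genes with a promoter entry had a row at this threshold in all 6 lists, against 21.1% of 27025 genes. The exceptions were Nanog, called in both lists of no antibody, and Esrrb, called in no list. Only 3 of 6 fibroblast and 2 of 6 primitive endoderm markers had an entry, too few to check for those cells: none was called in all 6 lists, and Foxa2 had a row in every list (folds 1.72 to 3.44) that passed in at least 1 list but in both lists of no antibody.

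The miR-290 locus was occupied by all 3 proteins, both at the hairpins and far upstream. At that threshold 21 of its 33 rows passed, with 2 to 4 passing in every list. In the miR-302 window 6 of 26 rows passed, 1 in each list, and every one of those 6 lay over the Larp7 and Zgrf1 starts. All 9 miR-290 genes were under a row at this threshold in all 6 lists, and 0 of the 5 miR-302 genes were in any. Over the genome, 4.80% of 1228 RefSeq microRNA genes met it in all 6 lists, and 8.06%, 6.68%, 7.82%, 8.63%, 10.4% and 10.5% met it in the single lists, from NELFB:HA replicate 1 to SPT5 replicate 2. The 9 genes share 1 row in each list and count as 1 locus.

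**Figure D1:**
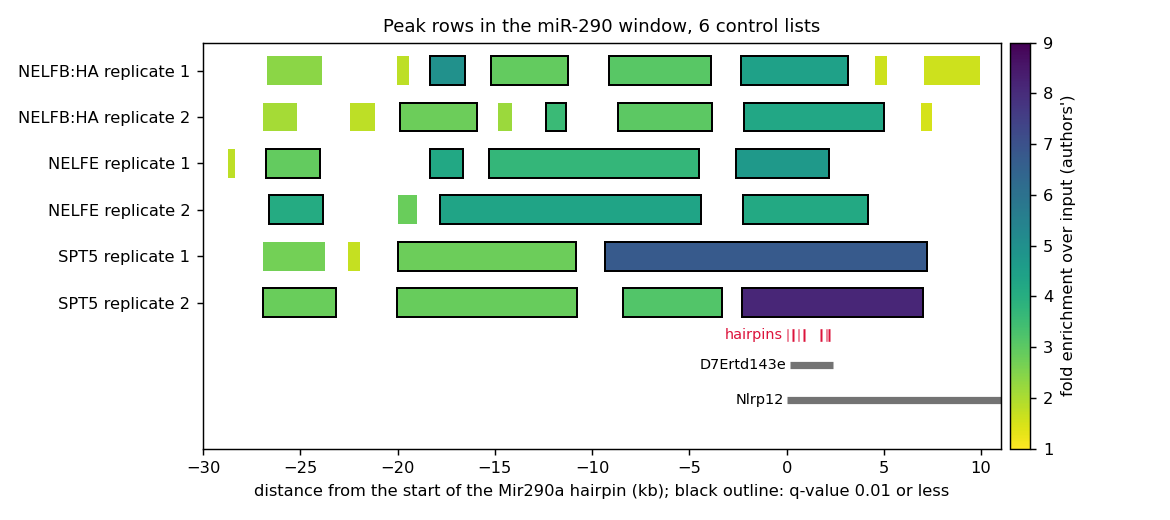
Rows of the 6 peak lists in the miR-290 window, drawn by distance in kb from the start of the Mir290a hairpin, with colour for the authors' fold enrichment and a black outline for a q-value of 0.01 or less. In each list a row covers the hairpins, and rows at the threshold continue upstream. The SPT5 rows over the hairpins are the darkest, at folds of 6.75 and 8.15.

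At the miR-290 hairpins the NELF signal was moderate and the SPT5 signal among the strongest of its lists. NELFB:HA replicate 1 had a row from 3216258 to 3221792 (5535 bp) with a fold of 4.46 and a pileup of 39.6, rank 3577 of 343503 by pileup. In NELFB:HA replicate 2 the row ran from 3216424 to 3223617 (7194 bp), with a fold of 4.24 and a pileup of 29.8, rank 2960 of 447756. These rows, over Mir290a and the rest of the cluster, stood in the top 1.04% and 0.661% of their lists, with a deposited −log10 q of 23.3 and 16.7.

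NELFE replicate 1 had a row from 3216001 to 3220815 (4815 bp), with a fold of 4.72 and a pileup of 41.6, rank 3699 of 203679. NELFE replicate 2 had one from 3216379 to 3222827 (6449 bp), with a fold of 4.16 and a pileup of 31.7, rank 5186 of 217115. The NELFE rows thus stood in the top 1.82% and 2.39%, and their deposited −log10 q was 25.6 and 19.7.

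In SPT5 replicate 1 the row ran from 3209269 to 3225831 (16563 bp), with a fold of 6.75 and a pileup of 47.9, rank 114 of 462153. In SPT5 replicate 2 it ran from 3216318 to 3225651 (9334 bp), with a fold of 8.15 and a pileup of 101.4, rank 21 of 137102. Their −log10 q was 29.6 and 62.9, and they were within the top 0.0247% and 0.0153% of rows. SPT5 replicate 1 joins the hairpins to the nearest upstream block, which the other 5 lists call as a separate row.

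The ends of these rows also differed between the factors. In 5 of the 6 lists the cluster row began 2202 to 2625 bp before Mir290a, whichever the antibody. Past the last hairpin, Mir295, the NELF rows ended at 951 and 2776 bp for NELFB:HA and at −26 and 1986 bp for NELFE, so NELFE replicate 1 stopped just inside Mir295. The SPT5 rows ended 4990 and 4810 bp past it. Both SPT5 rows therefore reached further downstream than each of the 4 NELF rows, and both were longer. Among 5873 regions with a called row in all 6 lists, 24.0% had longer SPT5 rows in this sense. The SPT5 libraries had tags of 100 and 101 bp and shared 1 input. The NELF libraries had tags of 50 bp and other inputs. In any comparison with SPT5, antibody therefore cannot be told apart from tag length or input.

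Upstream of the hairpins, rows at the threshold reached 18324 and 19877 bp before Mir290a in NELFB:HA, 26770 and 26632 bp in NELFE, and 19993 and 26922 bp in SPT5. The most distant block with a passing row, merged over the lists from 3191691 to 3195457, had a row in all 6 lists, and 3 of them passed the threshold. Its fold was 2.38 and 2.09 in NELFB:HA, 2.92 and 4.10 in NELFE, and 2.71 and 2.82 in SPT5. It passed in both NELFE lists and in SPT5 replicate 2, and in SPT5 replicate 1 its −log10 q of 1.95 lay just short of the value of 2 that the threshold requires.

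Between that block and the cluster each list had further rows at the threshold, separated by gaps. NELFB:HA replicate 1 had rows from 3200302 to 3202114, from 3203419 to 3207388 and from 3209495 to 3214749, with folds of 4.98, 2.92 and 3.07. NELFE replicate 2 had a single row of 13398 bp over the same stretch, from 3200807 to 3214204, with a fold of 4.32. In SPT5 replicate 2 it was split into rows from 3198614 to 3207838 and from 3210237 to 3215312, with folds of 2.86 and 3.18.

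The blocks recur in the remaining lists. NELFB:HA replicate 2 passed the threshold from 3198749 to 3202696, from 3206244 to 3207269 and from 3209953 to 3214794, with folds of 2.81, 3.58 and 3.03. NELFE replicate 1 passed it from 3200287 to 3201990 and from 3203328 to 3214099, with folds of 4.20 and 3.69, and SPT5 replicate 1 from 3198633 to 3207790, with a fold of 2.81. A gap of 1508 to 2174 bp separated the last upstream row from the cluster row in the 4 NELF lists, and one of 1005 bp did so in SPT5 replicate 2.

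NELF and SPT5 divided the locus differently. The cluster row had 0.896 and 1.18 times the fold of the strongest upstream row in the NELFB:HA lists, and 1.12 and 0.964 times in the NELFE lists. In the SPT5 lists it had 2.40 and 2.56 times that fold. NELF was thus about as enriched in its strongest upstream row as over the hairpins. SPT5 was higher over the hairpins in both of its lists, and the SPT5 ratios lay above all 4 NELF ratios. The other called upstream NELF rows were below the cluster row of their list. Their folds were 2.92 and 3.07 in NELFB:HA replicate 1 and 2.81 and 3.03 in replicate 2. In NELFE they were 2.92 and 3.69 in replicate 1 and 4.10 in replicate 2. The ratio takes only the strongest upstream row of each list. This ratio was chosen after the rows had been seen and was not tested. Some NELF rows and SPT5 rows differ in how they join blocks, so the ratio also carries their lengths.

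At the miR-302 hairpins no list reached the threshold. A row touched them in 5 of the 6 lists. NELFB:HA replicate 1 had a row from 127544354 to 127545880 with a fold of 2.44 and a q-value of 0.0533, rank 17028. It has the lowest q-value of the 5 and covers all 5 hairpins, Mir302a (127545496 to 127545564) among them. NELFB:HA replicate 2 had no row there, the nearest one ending 1376 bp before Mir302b.

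NELFE replicate 1 had a row from 127544346 to 127545338 with a fold of 2.19 (q-value 0.108, rank 14090), which covers Mir302b alone. NELFE replicate 2 had one from 127542963 to 127545829 with a fold of 2.05 (q-value 0.717, rank 84378), again over all 5 hairpins. Mir302a itself was under a row in NELFB:HA replicate 1, in NELFE replicate 2 and in SPT5 replicate 2, where the row ends within it. The SPT5 replicate 1 row, from 127544943 to 127545343, had a fold of 2.41 (q-value 0.108, rank 12721), and that of SPT5 replicate 2, from 127543835 to 127545511, a fold of 1.64 (q-value 0.909, rank 46303). All 5 rows cover the start of Gm51018, 139 bp before Mir302b, where the printed sequence has TATAAA. By pileup these rows stood in the top 4.96% of NELFB:HA replicate 1, 6.92% of NELFE replicate 1 and 2.75% of SPT5 replicate 1, but only in the top 38.9% of NELFE replicate 2 and 33.8% of SPT5 replicate 2. Absence of a passing row does not show that the factors are absent. A further stretch, merged over the lists from 127531848 to 127541845 within the span of Larp7 and past its end, held 12 rows from all 6 lists, none at the threshold, with folds of 1.49 to 1.99.

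**Figure D2:**
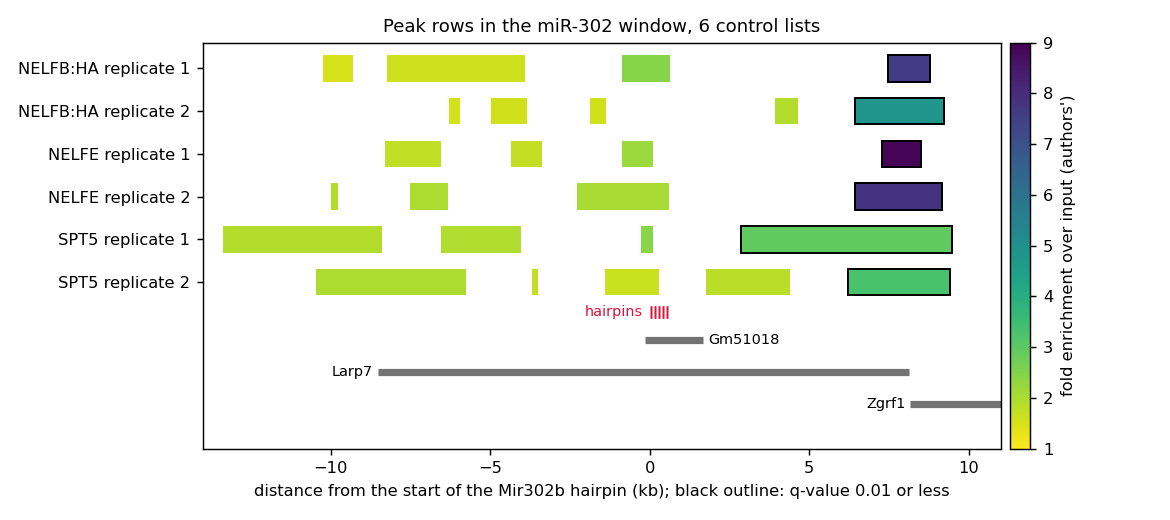
Rows of the 6 peak lists in the miR-302 window, drawn by distance in kb from the start of the Mir302b hairpin, with colour for the authors' fold enrichment and a black outline for a q-value of 0.01 or less. The outlined rows all lie at the Larp7 and Zgrf1 starts, and none covers a hairpin.

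The strong row of this window belongs to the protein-coding starts. Its fold was 7.60 in NELFB:HA replicate 1 (127552711 to 127554001, 1291 bp, rank 1337) and 4.83 in replicate 2 (127551677 to 127554444, 2768 bp, rank 2554). For NELFE it was 8.94 in replicate 1 (127552503 to 127553737, 1235 bp, rank 1478) and 7.84 in replicate 2 (127551655 to 127554406, 2752 bp, rank 1346). For SPT5 it was 2.94 in replicate 1 (127548078 to 127554706, 6629 bp, rank 6621) and 3.28 in replicate 2 (127551436 to 127554650, 3215 bp, rank 4475). The pileup there was 59.7 and 31.9 in NELFB:HA, 61.3 and 60.4 in NELFE, and 14.7 and 30.7 in SPT5. The −log10 q was 38.8 and 16.5, 45.7 and 41.1, and 4.39 and 9.71 in the same order. Set against the median fold of regions shared by all 6 lists, the NELF folds at this start were above their own lists' medians of 5.32, 4.13, 6.29 and 6.58, and the SPT5 folds were near theirs, 3.21 and 3.12. The SPT5 rows were again longer than each of the NELF rows.

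Within each list, the highest-pileup rows of both windows were then set against each other. On the log2 scale the miR-290 fold minus the miR-302 window fold was −0.77 and −0.19 in NELFB:HA (mean −0.48 ± 0.41, SD, n = 2) and −0.92 and −0.91 in NELFE (−0.92 ± 0.0057, SD, n = 2). In SPT5 it was 1.20 and 1.31 (1.25 ± 0.081, SD, n = 2). So the row at the Larp7 and Zgrf1 starts was the higher in all 4 NELF lists, and the miR-290 cluster the higher in both SPT5 lists, by 2.29 and 2.48 times. Over the 6 lists the opposite signs cancelled, with a mean of −0.047 and a two-sided exact sign-flip permutation p of 0.969.

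The antibodies were compared in this difference, with 2 libraries against 2 and 3 comparisons. NELFE minus SPT5 was −2.17 (pooled SD 0.057), NELFB:HA minus SPT5 was −1.73 (pooled SD 0.30) and NELFB:HA minus NELFE was 0.44 (pooled SD 0.29). The differences from SPT5 were larger than the spread between replicates. NELFB:HA minus NELFE was above its pooled SD but smaller than the gap between the NELFB:HA values, and it was 0.15 without replicate 2 and 0.73 without replicate 1. Each difference had a two-sided exact permutation p of 0.333 (adjusted 0.333), the smallest that 2 against 2 can give. None therefore passes a threshold of 0.05, and none could.

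Without the rows in the last 5 kb of the miR-302 window, where the protein-coding starts lie, the miR-290 cluster was the higher in 6 of 6 lists. The miR-302 row set against it was a hairpin row only in the replicate 1 lists. In NELFB:HA, NELFE and SPT5 replicate 2 it touched no hairpin, with folds of 1.92, 1.91 and 1.99. The log2 difference was then 0.87 and 1.15 in NELFB:HA (mean 1.01 ± 0.20, SD, n = 2), 1.11 and 1.12 in NELFE (1.11 ± 0.0091, SD, n = 2), and 1.49 and 2.04 in SPT5 (1.76 ± 0.39, SD, n = 2). Its mean of 1.29 had a two-sided exact sign-flip permutation p of 0.03125, the smallest that 6 lists can give. The lists are of 3 antibodies from the same cells and SPT5 shares an input, so this p concerns agreement in sign among lists, not among independent cultures. Leaving out that end removed the only called row of the miR-302 window in each list and no miR-290 row. A positive sign was thus favoured in advance, and no conclusion is drawn from this p.

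**Figure D3:**
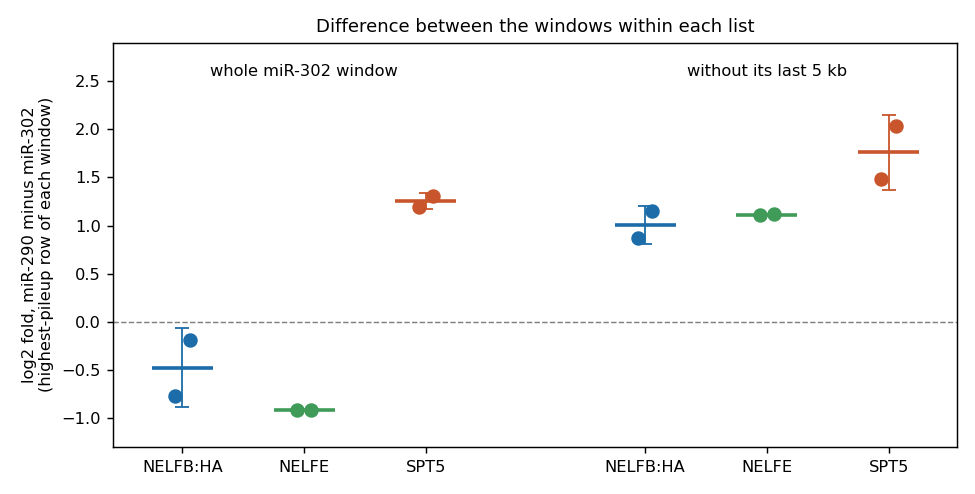
Log2 fold of the highest-pileup row of the miR-290 window minus that of the miR-302 window in each list, by antibody, with the whole miR-302 window (left) and without its last 5 kb (right). Points are libraries, bars the mean and whiskers the SD of 2 libraries. NELF lists lie below 0 on the left and all lists lie above 0 on the right.

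Rows of any strength covered more of the miR-290 window than of the miR-302 window. They covered 58.0% and 59.0% of it in NELFB:HA, 56.6% and 65.6% in NELFE, and 82.0% and 76.1% in SPT5. For the miR-302 window the values were 40.4% and 27.3%, 24.7% and 35.2%, and 56.9% and 61.1%. The difference averaged 25.3 percentage points and was positive in 6 of 6 lists (two-sided exact sign-flip permutation p = 0.03125). As for fold, the lists come from the same cells, so this p concerns agreement in sign among lists and not among independent cultures. Counting only called rows, the mean difference was 45.0 points, between 33.4 and 60.0. The miR-290 window was drawn to hold a known enhancer, so its greater coverage describes these windows and not microRNA clusters in general. A positive difference was thus favoured in advance, and no conclusion is drawn from the p of the covered length.

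Among all microRNA loci, the miR-290 cluster led the SPT5 lists. Of the distinct rows over microRNA genes it had the highest fold in both SPT5 lists, first of 424 and first of 205. In the NELFB:HA lists it stood at place 49 of 282 and 32 of 334, and in the NELFE lists at place 53 of 208 and 64 of 219. The miR-302 row stood at place 85 of 282 in NELFB:HA replicate 1, at 97 and 120 in the NELFE lists, and at 99 and 175 in the SPT5 lists. The median fold of such rows was between 1.76 and 2.17. In SPT5 replicate 1 the lead of the miR-290 row was narrow, with a fold of 6.75 against 6.51 for the row over Mir6935.

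**Figure D4:**
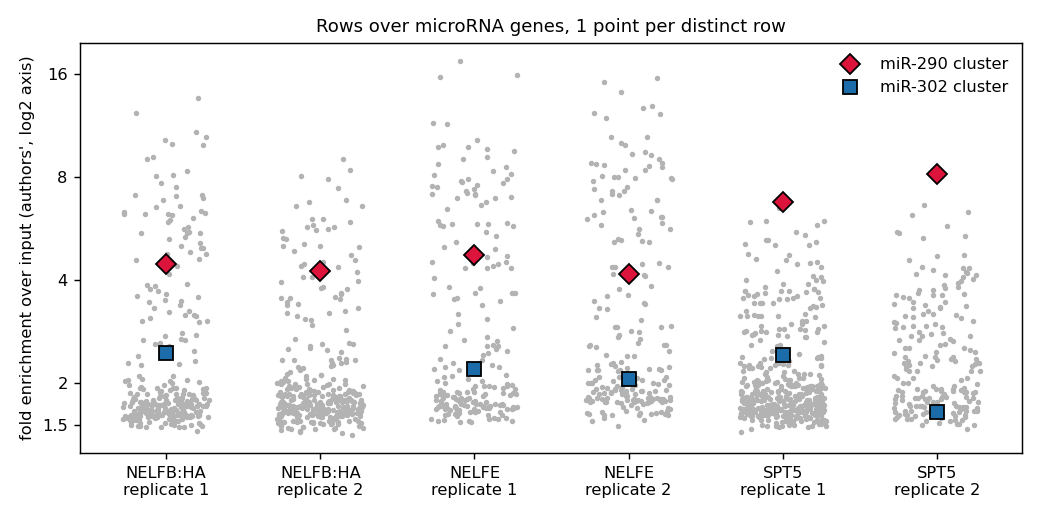
Authors' fold enrichment (log2 axis) of each distinct row that overlaps a RefSeq microRNA gene, by list, with the miR-290 row as a red diamond and the miR-302 hairpin row as a blue square. The red diamond is the top point in both SPT5 lists, and NELFB:HA replicate 2 has no miR-302 row.

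Ranks in lists of different lengths are not comparable, so places were also taken among the 5873 regions that passed the threshold in all 6 lists. By pileup the miR-290 cluster was at place 3323 and 2743 in NELFB:HA, 3359 and 4474 in NELFE, and 66 and 15 in SPT5. Both SPT5 places were nearer the top than each NELF place, as was the case for 20.0% of these regions. The Larp7 and Zgrf1 start went the other way, with places 1293 and 2400, 1406 and 1297, and then 5182 and 3890 in SPT5. A lower place in both SPT5 lists than in each NELF list was found for 17.8% of regions. By fold the order was alike: the cluster stood at places 3968, 2778, 4506 and 5244 in the NELF lists and at 71 and 16 in the SPT5 lists (17.8% of regions moved that way), and the Larp7 and Zgrf1 start at places 1117, 2069, 1068 and 1999, then 3855 and 2478 (16.1% moved that way). The direction at each locus was thus shared by many regions. This measure was chosen after the values had been seen.

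**Figure D5:**
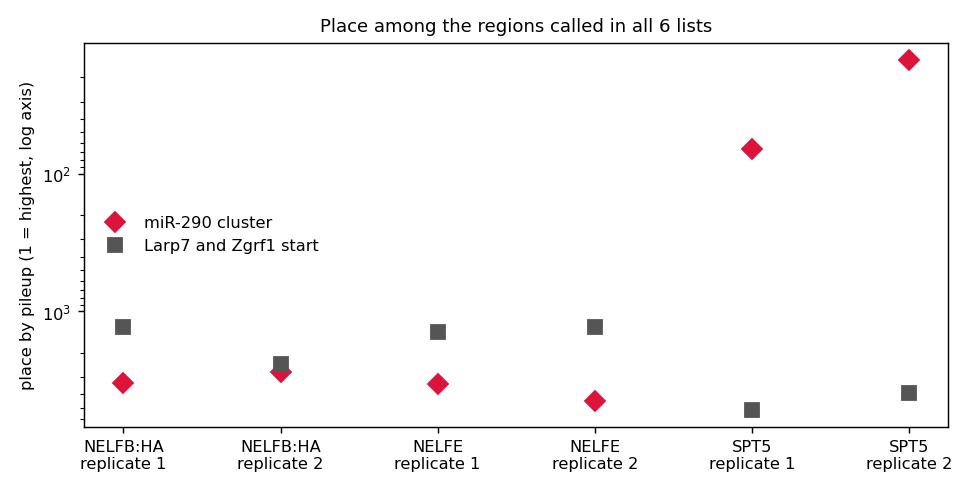
Place by pileup (log axis, 1 is the highest) among the 5873 regions with a row at a q-value of 0.01 or less in all 6 lists, for the miR-290 cluster (diamonds) and the Larp7 and Zgrf1 start (squares). The miR-290 cluster moves from places 2743 to 4474 in the NELF lists to 66 and 15 in the SPT5 lists.

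The genes that act with these clusters were read at their promoter windows, with a q-value no higher than 0.01 as the call. Of all genes, 26.5% were called in both NELFB:HA lists, 31.1% in both NELFE lists, 22.6% in both SPT5 lists and 21.1% in all 6. Of 17 genes of microRNA biogenesis with a promoter entry, 13, 16 and 11 were called in both lists of these antibodies, and 11 in all 6. Ddx5, a helicase of the Drosha complex, was the highest by mean rank percentile, with folds of 12.6 and 13.1 in NELFB:HA, 12.3 and 17.8 in NELFE, and 4.72 and 4.26 in SPT5. Dgcr8, which recognises the hairpins for Drosha, was also called, with folds of 6.77 and 7.67, 8.69 and 15.5, and 3.76 and 2.96. Dicer1, which cuts the hairpins to their mature length, passed in both NELFE lists but not in both lists of NELFB:HA or of SPT5. Ago4 was the lowest of the list.

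Of 11 known targets of this microRNA family with an entry, 4 were called in all 6 lists, and 6, 6 and 4 in both lists of NELFB:HA, NELFE and SPT5. The 4 were Ei24, Cdkn1a (the cell cycle inhibitor p21), Casp2 and Lats2 (a kinase of the Hippo pathway). Cdkn1a had folds of 4.37 and 5.26 in NELFB:HA, 7.96 and 8.30 in NELFE, and 2.85 and 2.59 in SPT5. Nr2f2, a gene of later development, was the lowest. Of 9 upstream regulators with an entry 6 were called in all 6 lists, including Pou5f1 and Sox2. Klf4 was the highest, with folds of 7.20 and 8.28, 5.74 and 7.20, and 4.41 and 4.14. Nanog and Smad3 were called in both lists of no antibody, and Esrrb, the lowest, was called in no list. Nlrp12, whose annotated span overlaps the miR-290 hairpins, had no row at the threshold at its promoter in any list.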

How the data were processed

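Sequencing reads of ChIP libraries were processed by the submitters. Their processing notes name mm10, Bowtie2, deepTools and MACS2, and per the file headers MACS 2.1.1.20160309 called broad peaks in each library against an input, with p-value cutoffs of 0.01 (strong) and 0.1 (weak), at most 1 tag per position and no pooling. The headers name 5 inputs, of which the SPT5 libraries share 1. The deposited pileup signal is ChIP coverage, with the deeper library of each ChIP and input pair scaled down, per the file headers. The deposited fold is the ratio of that coverage to local background. Significance is deposited as −log10 of p and of q. Headers state that q is not calculated, yet the column holds values of 0 and above, which were used here. A broad row is an average over its length, so long rows dilute narrow signal.

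Rows sharing at least 1 bp with a window were taken (Python 3.11.15, pandas 2.3.3, numpy 2.4.6), and ranked by pileup within their list. Gene positions, promoter windows and sequences are RefSeq's on GRCm38.p6, whose chromosomes are those of mm10. Tests were two-sided exact permutation tests, with Benjamini-Hochberg adjustment over 3 comparisons, and the code was tested on simulated data. Every row of the windows was accounted for. The rows named are the highest-pileup row of each window and, from merged regions with a q-value of 0.01 or less in at least 1 list, the distal block in every list and otherwise the rows that pass; the rows below the threshold there are in the counts, and the miR-302 hairpin rows were added because they are the cluster; listed genes are named at the ends of their order by mean rank percentile, with Dgcr8, Dicer1, Cdkn1a and the called targets and regulators added after their values were seen. Nanog and Smad3 were also named after their values were seen. The members and lists were chosen with earlier results of these data known. Replicate numbers come from the titles. Alternatives covered the row that stands for a cluster, the window, the q-value and the replicates.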

Additional observations from a re-analysis of the deposited data

Results flagged for a closer look

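The difference between the 2 windows took opposite signs with the NELF and SPT5 antibodies. Log2 fold at the miR-290 cluster minus the miR-302 window was negative in both NELFB:HA and both NELFE lists and positive in both SPT5 lists. The miR-302 value here is that of the row at the Larp7 and Zgrf1 starts. Without the last 5 kb of that window the difference was positive in 6 of 6 lists. In the replicate 2 list of each antibody the miR-302 row then touched no hairpin. NELFB:HA minus SPT5 was −1.73 and NELFE minus SPT5 was −2.17. Each exact permutation p was 0.333, the smallest possible with 2 libraries against 2, so the difference is not established by a test. The SPT5 libraries also differ from the NELF libraries in tag length (100 and 101 against 50 bp) and input, and antibody cannot be told apart from these. Row lengths differ too. At the Larp7 and Zgrf1 starts they were 1235 to 2768 bp in the NELF lists and 3215 and 6629 bp in the SPT5 lists. At the miR-290 cluster they were 4815 to 7194 bp in the NELF lists and 9334 and 16563 bp in the SPT5 lists. The part of length in the result was not tested.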

How the results depend on the processing

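Of 36 alternatives for 7 results, 29 kept the direction and the side of the threshold, or moved a count by at most 1.5 times. Comparisons between antibodies cannot pass the threshold, so there only the direction could change. Where they left out a replicate number, the rule was the same direction and a move below the pooled SD. Choosing rows by −log10 p, keeping rows mostly inside the window, and extending windows by 10 kb all gave the same −0.047 in fold. The 29 therefore includes alternatives with little room to differ. The contrast in fold, −0.047 over the 6 lists, reversed to 1.29 without the last 5 kb of the miR-302 window and to 1.36 with rows over the hairpins alone (5 lists with such a row, an alternative added after seeing the data), both of which leave out the Larp7 and Zgrf1 starts by construction. It reversed to 0.063 with log10 pileup in place of log2 fold and to 0.070 without replicate 1, and was −0.16 without replicate 2. NELFB:HA minus NELFE reversed from 0.44 to −0.11 without the last 5 kb. With rows limited to q-values up to 1e-05 the contrast (−0.30) rests on 5 lists, since the miR-302 window of SPT5 replicate 1 then has no row. The covered-length difference of 25.3 points was positive in every list under every alternative, but was 16.9 (lowest list 4.11) with windows extended by 10 kb, and 45.0 and 39.2 (lowest list 8.99 in the latter) with rows limited to q-values up to 0.01 and 1e-05. It stayed between 24.9 and 25.7 points when a replicate number was left out, where 3 lists cannot give an exact p below 0.25. With the replicate block, the differences between antibodies are 0.44, −1.73 and −2.17 as before, with SDs of same-numbered differences of 0.40, 0.33 and 0.075 and an exact sign-flip p of 0.5 each. The replicate numbers share only a number: same-numbered deviations correlated at −0.00084, −0.032 and −0.017 over 5873 regions. Depth is 27324697 to 62312558 tags, and at this depth no miR-302 hairpin row passed the threshold in any list.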

Other observations

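Other microRNA genes fixed in a list of 22, of which 21 had an entry, were read in the same way. Called in both SPT5 lists, and in both lists of neither NELF subunit, were 5 of the 21: Mir17hg, Mir106a, Mir20b, Mirlet7a-1 and Mirlet7d. Of all 1228 microRNA genes, read at the hairpin, 3.75% met the same condition. Mir106a and Mir20b share a row, as do Mirlet7a-1 and Mirlet7d, so the 5 genes are 3 distinct rows. For 4 of the 5, all but Mirlet7d, no NELF list had a row of any strength, and Mirlet7d had rows below the threshold in NELFB:HA, with folds of 1.70 and 1.59. Mir17hg, host of a microRNA cluster abundant in stem cells, had SPT5 folds of 3.90 and 4.06 at its annotated promoter window. At Mir106a and Mir20b the SPT5 folds were 2.85 and 3.30, and at Mirlet7a-1 and Mirlet7d 3.53 and 3.31. These genes were named after their values were seen, and those other than Mir17hg were read at the hairpin and not at a promoter.

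In contrast, 3 of the 21 genes were called in all 6 lists: the promoters of Mir22hg and Mcm7, the latter a replication gene that hosts microRNAs, and the hairpin of Mirlet7i. Over the genome, 21.1% of 27025 genes met this at the promoter and 4.80% of 1228 microRNA genes at the hairpin. The 3 mix both readings, so neither share is a direct match. Mirlet7i had folds of 9.05 and 7.44 in NELFB:HA, 9.14 and 8.74 in NELFE, and 3.53 and 4.58 in SPT5. Mirg and Mirlet7c-1 had no row in any list.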
